A study of Mus musculus with 5 samples.

Results

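The genes described here encode the extracellular proteases of the ADAM, ADAMTS and MMP families, the ADAMTS-like proteins and the TIMP inhibitors, measured in mouse forelimb buds. They were chosen by name: symbols of the form Adamts, Adamtsl, Adam or Mmp followed by a number, or Timp followed by a digit, with at least 10 counts in 2 or more of the 5 libraries. Of 23284 gene symbols 77 had such a name and 56 met the count minimum, namely 17 of 26 Adam, 18 of 19 Adamts, all 5 Adamtsl, 12 of 23 Mmp and all 4 Timp genes. The series concerns regulation by HOX13 transcription factors during digit development. The 2 mutant libraries came from the distal E11.5 forelimb of embryos with both copies of both genes disrupted (Hoxa13-/-;Hoxd13-/-), and the 2 wild-type libraries from the same part and stage. Strain labels gave a mixed C57BL/6 and CD1 background for all 4 of these libraries. The fifth library was E10.5 forelimb bud of strain CD1, with no genotype label and no dissected part given. The Hoxa13 allele carries a neomycin cassette in the coding region and the Hoxd13 allele lacZ in its first exon, so both are germline alleles present in every cell. Per the labels' protocols each E11.5 library was made from a pool of dissected tissue (N = 4), with independent pools within a genotype. Effects of stage, dissected part and strain on the E10.5 differences cannot be told apart.

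MMPs and ADAMTS proteases cut collagens and proteoglycans of the extracellular matrix, and ADAM proteases sit in the cell membrane and release the outer parts of other membrane proteins. ADAMTS-like proteins have the binding domains of ADAMTS proteases without the protease domain and associate with fibrillin microfibrils. TIMPs block MMPs, and TIMP3, which is bound to the matrix, also blocks several ADAM and ADAMTS proteases. In the mouse limb, cleavage of the proteoglycan versican by ADAMTS proteases is known for its part in the regression of the webs between the digits.

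Counted reads ran from 45115494 to 84172202 per library. Reads assigned to no gene made up 24.3% of the total at E10.5 and 30.3% to 39.6% at E11.5. Of the targeted genes, Hoxa13 was at 46.1 and 38.003 CPM (read counts scaled to library size with TMM factors) in the mutant libraries, 48.6 and 46.5 in wild type and 6.23 at E10.5 (log2 fold change between genotypes -0.17, adjusted p = 0.438 by edgeR), and its insertion allele can leave a transcript. Hoxd13 was at 45.8 and 38.2 CPM in the mutant libraries, 236 and 242 in wild type and 63.6 at E10.5 (-2.50, 1.12e-07). All 10 limb bud mesenchyme markers had counts in every library, among them the forelimb gene Tbx5 at 77.5 to 96.8 CPM, and in the mutant 1 of them rose and 6 fell (summed CPM 1220 to 1289 in the mutant, 1192 to 1277 in wild type and 1244 at E10.5). The summed CPM of 10 neuron and Schwann cell markers was 28.8 and 31.1 in the mutant libraries, 67.6 and 68.5 in wild type and 35.4 at E10.5, with 3 of 9 tested markers fallen in the mutant. The sum of 13 macrophage markers was 85.8 to 89.4 CPM in the mutant and 58.5 to 76.9 in wild type, with 2 of 13 risen, and 21.9 at E10.5, where 11 of 13 were lower. The sum of 9 erythroid markers was 2839 to 2898 CPM in the mutant and 2284 to 2304 in wild type, with 1 of 8 tested markers risen, and 3937 at E10.5; Hba-a1 of this list was listed at 0 in all 5 libraries. Endothelial markers (1 risen and 1 fallen of 13) summed to 276 to 303 CPM in the mutant, 261 to 271 in wild type and 375 at E10.5. Muscle markers (1 fallen of 10) summed to 115 to 145, 161 to 189.9 and 121 CPM in the same order, and surface ectoderm markers (2 fallen of 10) to 316 to 331, 332 to 353 and 299. Of the muscle markers, 2 were higher and 4 lower at E10.5 than in wild type, and Met alone made up 76.7 of the 121 CPM. Over all genes tested, 3.82% rose and 3.34% fell in the mutant, by the calls described below. At E10.5, 3.85% of 16323 genes were higher and 12.4% lower, by at least 2-fold from each wild-type library. In bulk tissue, fewer cells of a type and less RNA per cell cannot be told apart. The part of these cell types in the values below was not tested.

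In the distal limb of the mutant, 3 of the 55 tested genes rose and 4 fell. Adamtsl2, Timp3 and Adamts3 rose, and Adamts5, Adamts1, Adamtsl1 and Timp4 fell. No Adam gene and no Mmp gene was called. Calls used edgeR's quasi-likelihood test at a Benjamini-Hochberg adjusted p below 0.05, with the adjustment over every gene tested. Of all 16166 genes tested, 3.82% rose, 3.34% fell and 7.16% did either, beside 12.7% of the tested proteases and inhibitors. Timp4 met the count rule through wild type alone, and without it 3 rose and 3 fell of 54 (11.1%). The median log2 fold change of mutant over wild type was -0.03 over the 55 genes and -0.000819 over all genes. In 13 of the 55 both mutant libraries lay above both wild-type libraries and in 14 below, against 24% and 25.3% of all tested genes. Adam32 was too low to be tested, with 8 to 11 counts per library. Wild-type replicate 1 was at least 1.5-fold higher than replicate 2 in 8 of the 56 genes, against 1347 of 16323 genes (8.25%). It was lower by that much in 1 of the 56, against 498 of 16323 genes (3.05%).

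**Figure D1:**
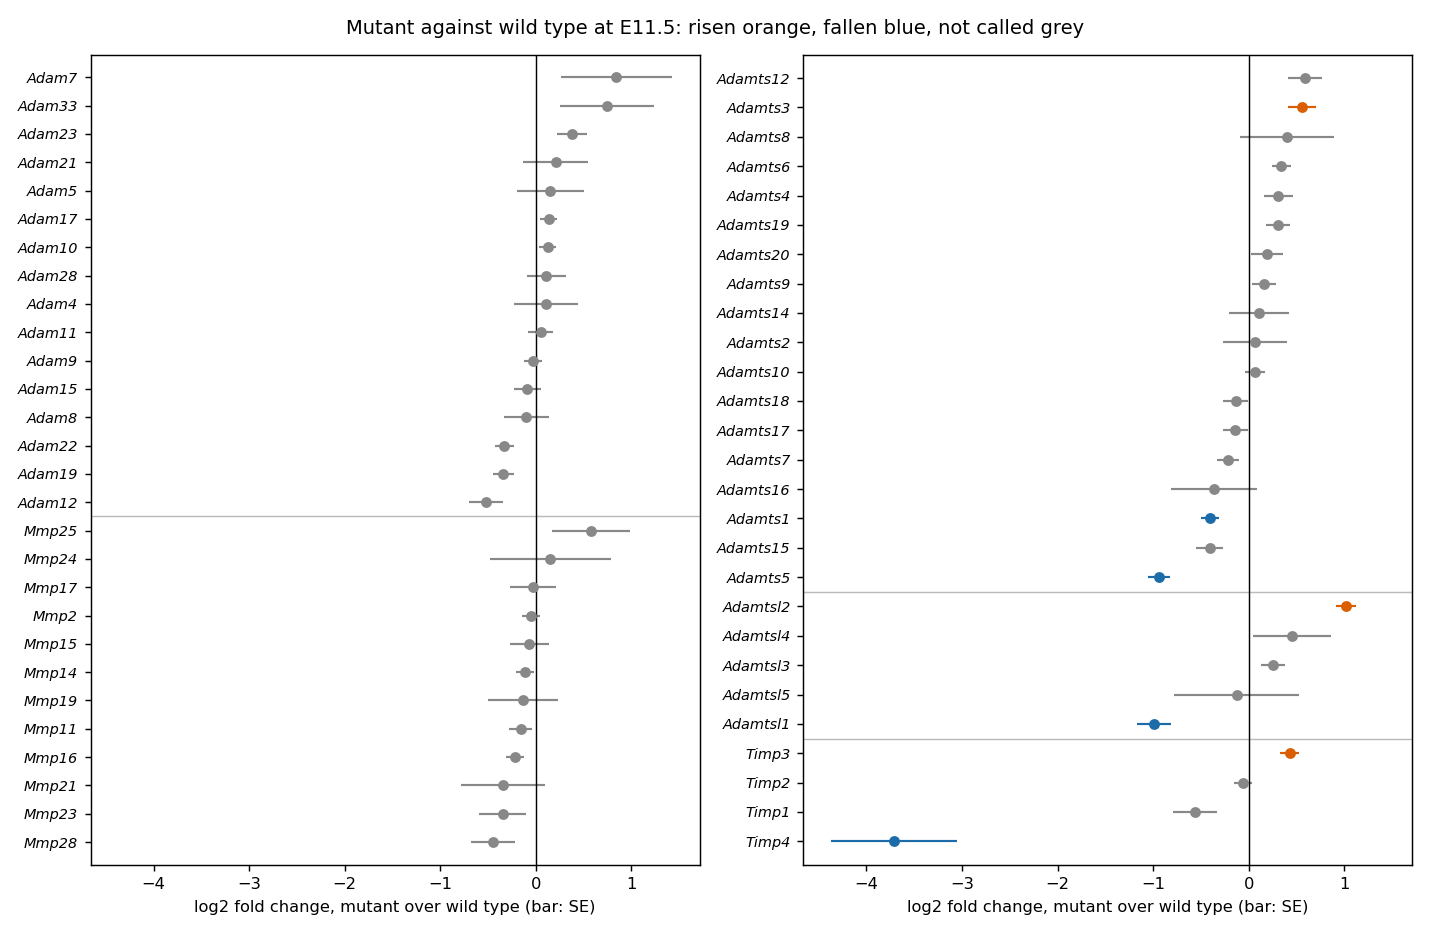
Log2 fold change of mutant over wild-type E11.5 distal forelimb for the 55 tested genes (x axis; horizontal bars are the SE), grouped by family with grey lines between families. The 3 risen genes are orange and the 4 fallen genes blue, and all of them lie in the Adamts, Adamtsl and Timp families of the right panel.

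Among the ADAMTS proteases that cut versican and aggrecan, 2 of 7 fell and 0 rose. For this and the other small classes below, the shares over all genes were 3.34% fallen and 3.82% risen. Adamts5, the main aggrecan-cutting enzyme of mouse cartilage, was at 11.8 and 11.4 CPM in the mutant libraries, at 22.01 and 22.5 in the wild-type libraries and at 5.20 at E10.5. Both mutant libraries therefore lay below both wild-type libraries and above E10.5. The means were 11.6 ± 0.316 CPM (SD, n = 2) and 22.2 ± 0.331, and the log2 fold change was -0.94 with an SE of 0.11 (adjusted p = 0.000349). Adamts5 kept its call under all 10 alternatives run.

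Adamts1, a versican-cutting protease required for normal growth in mice, was at 81.7 and 75.8 CPM in the mutant libraries, 98.2 and 111 in wild type and 65.6 at E10.5. The genotypes did not overlap, and the mutant again lay between E10.5 and wild type. The log2 fold change was -0.40 (SE 0.09, adjusted p = 0.024). This call ended without mutant replicate 1 (adjusted p = 0.0506) and without mutant replicate 2 (0.218). Adamts1 and Adamts5 are immediate neighbours among the protein-coding genes of chromosome 16 and lie on the same strand. N6amt1, the next gene beyond Adamts5, had a log2 fold change of 0.17 (adjusted p = 0.481), and Cyyr1, beyond Adamts1, had 0.54 (0.494).

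The other 5 enzymes of this class did not pass the test. Adamts15 had the value closest to it, 14.6 and 17.5 CPM in the mutant against 23.7 and 19.1 in wild type (log2 fold change -0.41, adjusted p = 0.106). Adamts9 and Adamts20, a pair of closely related proteases that act in web regression in the mouse, had 0.16 and 0.19, and Adamts4 had 0.31. Adamts8 had between 14 and 37 counts per library at E11.5 and a log2 fold change of 0.40 (SE 0.49).

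Of the 3 procollagen-cutting ADAMTS genes 1 rose. Adamts3, which removes the amino-terminal propeptide of fibrillar procollagens and activates the lymphatic growth factor VEGF-C, was at 10.6 and 11.7 CPM in the mutant against 8.17 and 7.05 in wild type, with 12.9 at E10.5. Both mutant libraries exceeded both wild-type libraries (11.2 ± 0.790 against 7.61 ± 0.792 CPM; log2 fold change of 0.56, SE 0.15, adjusted p = 0.0395). The call ended without mutant replicate 1 (adjusted p = 0.0714), mutant replicate 2 (0.267) or wild-type replicate 2 (0.0764). Adamts2 and Adamts14, the other two of this class, were at 0.790 to 2.08 CPM in the E11.5 libraries and had log2 fold changes of 0.07 and 0.11.

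None of the 8 remaining ADAMTS genes was called. Adamts12, which cuts cartilage oligomeric matrix protein, was at 19.7 and 21.2 CPM in the mutant against 10.49 and 16.7 in wild type, a log2 fold change of 0.59 with an adjusted p of 0.0726. Both mutant libraries were above both wild-type libraries, but the wild-type libraries differed widely from each other. Adamts12 passed the test under 6 of the 10 alternatives, with log2 fold changes from 0.29 to 0.98 over all of them. Adamts6 (0.34), Adamts19 (0.31), Adamts7 (-0.22), Adamts17 (-0.14), Adamts18 (-0.13) and Adamts16 (-0.36) were not called. Adamts10, which binds fibrillin microfibrils and had the highest mean CPM of the ADAMTS genes, was at 122 and 113 CPM in the mutant libraries, 125 and 101 in wild type and 69.8 at E10.5. The genotypes overlapped (log2 fold change of 0.06 with an SE of 0.10, adjusted p = 0.814). Adamts16 lies next to the homeobox gene Irx1, which fell (log2 fold change -3.10, adjusted p = 0.000344), whereas Adamts16 had 18 and 22 counts in the mutant and 23 and 25 in wild type.

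Among the 5 Adamtsl genes 1 rose and 1 fell. Adamtsl2, whose human counterpart is mutated in geleophysic dysplasia, a disorder with short digits, was at 36.9 and 36.2 CPM in the mutant libraries. The wild-type libraries had 18.5 and 17.7 and the E10.5 library 4.77. Thus the mutant was above wild type and wild type above E10.5, with a mutant level 2.03-fold that of wild type (log2 fold change of 1.02, SE 0.10, adjusted p = 8.29e-05). The log2 fold change lay between 0.997 and 1.04 over the alternatives, and the call held under all 10.

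Adamtsl1, which encodes the secreted protein punctin, moved the other way. It was at 6.12 and 5.63 CPM in the mutant libraries, 13.9 and 9.64 in wild type and 0.962 at E10.5. The genotypes did not overlap, although the wild-type libraries were further apart than the mutant ones (5.87 ± 0.346 against 11.8 ± 2.997 CPM; log2 fold change of -0.99, SE 0.18, adjusted p = 0.00551). Omitting wild-type replicate 1 gave -0.72 and omitting wild-type replicate 2 gave -1.22, and the call held under all 10 alternatives. Adamtsl3 (0.26, adjusted p = 0.306), Adamtsl4 (0.45, 0.630) and Adamtsl5 (-0.13, 0.952) were not called. Adamtsl4 had 5.79 CPM in wild-type replicate 1 and 1.59 in replicate 2, and its log2 fold change ranged from -0.21 to 1.64 over the alternatives.

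The 4 TIMP genes differed in level and in direction. Timp3, the matrix-bound inhibitor, was at 131 and 121 CPM in the mutant libraries, 87.1 and 101 in wild type and 58.2 at E10.5. The mutant was again the highest group (126 ± 6.75 against 93.95 ± 9.65 CPM), with a log2 fold change of 0.43 and an SE of 0.10 (adjusted p = 0.019). The call ended without mutant replicate 1 (adjusted p = 0.131). Timp2, which takes part with MMP14 in the activation of MMP2, was at 33.6 and 31.1 CPM in the mutant against 33.6 and 34.0 in wild type, with 41.0 at E10.5 (log2 fold change of -0.06, SE 0.10, adjusted p = 0.817). Timp1, an inhibitor induced by growth factors and cytokines, was at 2.07 and 2.63 CPM in the mutant libraries, 3.14 and 3.79 in wild type and 4.77 at E10.5, a log2 fold change of -0.56 (SE 0.23) that did not pass the test (adjusted p = 0.197).

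Timp4 was the rarest of the 4. It had 2 counts in each mutant library, 26 and 25 counts in the wild-type libraries and 1 count at E10.5. Timp4 therefore met the count rule through the group where it was high, and its difference is given as a description. The log2 fold change was -3.71 (SE 0.66, adjusted p = 0.00472), and the 51 wild-type counts against 4 mutant counts gave a ratio of 13.9 per effective library size, with an exact 95% interval of 5.09 to 52.8 that covers counting error only. Each Timp gene but Timp2 overlaps a synapsin gene in the annotation, Timp1 with Syn1, Timp3 with Syn3 and Timp4 with Syn2. Syn2, which encodes a protein of synaptic vesicles, lies on the opposite strand and overlaps 90 of the 5894 exonic bases of Timp4. Syn2 fell as well, from 53 and 65 counts in wild type to 22 and 7 in the mutant (log2 fold change -2.15, adjusted p = 0.0121). The libraries were strand-specific, but the sources used here do not give the strand setting of the counting. Reads of Timp4 and Syn2 therefore cannot be told apart where these genes overlap, in exons or in the wider gene bodies. The summed neuron and Schwann cell markers were also lower in the mutant, as given above, and their part in the fall of Timp4 was not tested. Syn1 and Syn3 had log2 fold changes of 0.16 (adjusted p = 0.858) and 0.05 (0.933).

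**Figure D2:**
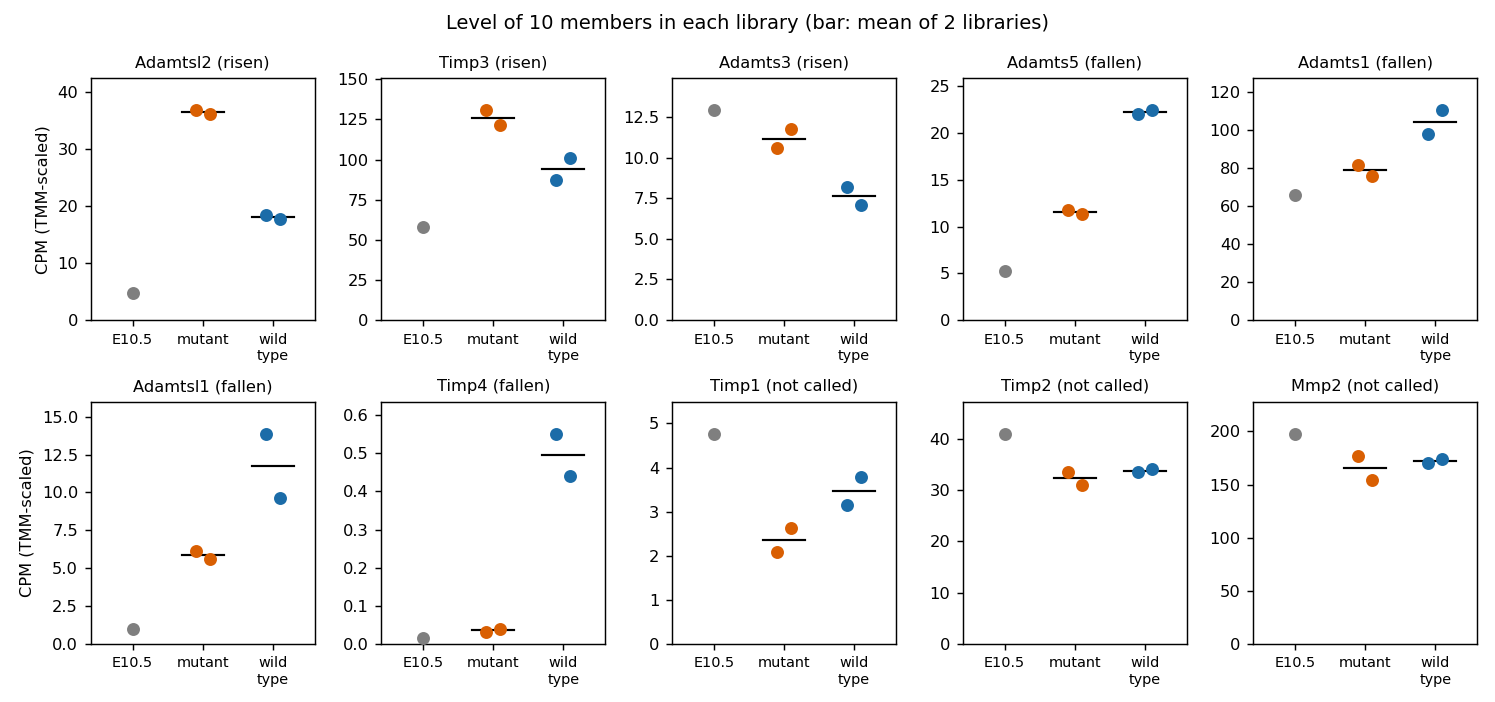
Level in CPM after TMM scaling (y axis, from 0) of 10 genes in the E10.5 library (grey), the 2 mutant libraries (orange) and the 2 wild-type libraries (blue); black bars are the means of 2 libraries. Adamts5, Adamts1 and Adamtsl1 have the mutant between E10.5 and wild type, Timp4 has at most 2 counts in each mutant and E10.5 library, and Adamtsl2 and Timp3 are highest in the mutant and Adamts3 is highest at E10.5.

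The 250 bases before the transcription start sites of 2 fallen genes, Timp4 and Adamts1, and of 2 risen genes, Timp3 and Adamtsl2, are shown because these genes changed in opposite directions in the mutant. They were taken from RefSeq (GRCm38.p6) at chr6:115252206-115252455 (minus strand), chr16:85803114-85803363 (minus strand), chr10:86300162-86300411 (plus strand) and chr2:27079129-27079378 (plus strand). The order is 5' to 3', and capitals mark the letters CTCGTAAA, a word of the kind that HOX13 proteins prefer to bind in vitro.
Timp4: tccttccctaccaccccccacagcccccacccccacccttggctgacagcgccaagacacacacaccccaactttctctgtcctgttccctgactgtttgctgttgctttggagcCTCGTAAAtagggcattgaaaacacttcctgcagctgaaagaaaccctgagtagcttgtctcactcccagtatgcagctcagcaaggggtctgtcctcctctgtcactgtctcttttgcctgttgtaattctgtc
Adamts1: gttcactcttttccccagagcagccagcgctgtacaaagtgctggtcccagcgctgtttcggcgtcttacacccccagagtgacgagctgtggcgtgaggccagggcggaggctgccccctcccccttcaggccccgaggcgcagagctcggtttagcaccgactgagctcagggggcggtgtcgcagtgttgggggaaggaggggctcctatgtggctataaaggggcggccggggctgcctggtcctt
Timp3: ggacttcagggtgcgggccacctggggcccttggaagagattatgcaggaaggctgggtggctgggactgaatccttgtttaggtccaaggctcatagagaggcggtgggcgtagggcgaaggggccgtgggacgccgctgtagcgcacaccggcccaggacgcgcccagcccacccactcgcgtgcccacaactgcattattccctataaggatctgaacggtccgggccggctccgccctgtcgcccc
Adamtsl2: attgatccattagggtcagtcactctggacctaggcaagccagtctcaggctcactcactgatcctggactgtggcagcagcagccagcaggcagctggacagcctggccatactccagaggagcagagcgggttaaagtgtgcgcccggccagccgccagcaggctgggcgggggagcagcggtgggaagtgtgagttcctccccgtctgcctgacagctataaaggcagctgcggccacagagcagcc
Both strands were searched for CTCGTAAA and for CCAATAAA, another such word, in windows of 250 bases before to 50 bases after each start. CTCGTAAA occurred in 43 of 32851 windows (0.131%) and CCAATAAA in 367 (1.12%). Of 36 windows of 33 of the genes described here, 1 held CTCGTAAA, that of Timp4, where the word began 135 bases before the start, and 0 held CCAATAAA. The fallen genes Adamts5 and Adamtsl1 had no window and were not searched. A match of letters is a description and not evidence of binding.

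None of the 16 tested ADAM genes was called, with log2 fold changes from -0.52 to 0.84. Adam17, which releases TNF and ligands of the EGF receptor, had 120 and 116 CPM in the mutant against 104 and 113, with 109 at E10.5 (log2 fold change of 0.13, SE 0.09), and Adam10, the protease that cuts Notch receptors, was at 52.7 and 55.2 against 50.4 and 49.1 (0.12, SE 0.09). In both, each mutant library was above each wild-type library, yet by less than the test required (adjusted p = 0.453 and 0.525). Adam12, a protease of muscle and bone precursors, had -0.52 (adjusted p = 0.111), Adam19 had -0.34 (0.0906) and Adam22, which lacks protease activity and binds LGI proteins in the brain, had -0.33 (0.0713). Adam12 and Adam19 each passed under 2 of the 10 alternatives and Adam22 under 0. Adam33 and Adam7, at the positive end of the family (0.74 and 0.84), rested on 18 to 46 and 8 to 18 counts per E11.5 library.

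None of the 12 Mmp genes was called either, with log2 fold changes from -0.45 to 0.58 and a median of -0.12. Of the 12, 10 lay below 0, beside 8115 of all 16166 genes tested. Mmp2, the gelatinase that cuts denatured collagen, was at 177 and 155 CPM in the mutant libraries, 171 and 174 in wild type and 198 at E10.5. The mutant libraries lay on either side of the wild-type ones (log2 fold change of -0.05, SE 0.09, adjusted p = 0.828), and the sign turned to 0.04 without mutant replicate 2. Mmp14, the membrane-bound activator of MMP2, had 75.0 and 67.0 CPM against 80.8 and 73.3 (-0.11). Mmp16 had 38.2 and 41.3 against 45.9 and 46.8 (-0.21, adjusted p = 0.237), and Mmp11, which is activated inside the cell by furin, had 27.6 and 23.6 against 26.8 and 30.6 (-0.16). Mmp1a, Mmp1b, Mmp3, Mmp7 and Mmp10 had no count in any library, and the collagenase genes Mmp8 and Mmp13 had 0 to 9 counts per library. Mmp9, the second gelatinase, fell just outside the count rule with 8 counts at E10.5, 2 and 12 in the mutant and 8 and 5 in wild type. Mmp24 was just inside, with 3, then 10 and 20, then 17 and 8 in the same order. Of the 21 excluded symbols 12 had no count in any library.

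Levels were compared between genes per kb of exon, using the union of exons in GENCODE vM21, which may differ from the annotation behind the counts. Mmp2 was the most abundant of the 56, at 55.4 and 56.6 CPM per kb in wild type. Then came Adam17 (23.0 and 25.0), Adamts1 (20.1 and 22.7), Timp3 (18.5 and 21.3), Adamts10 (20.8 and 16.9) and Mmp14 (19.3 and 17.5). From Adamts1 to Mmp14 neighbours in this order overlapped in the wild-type libraries, whereas Adam17 lay above Adamts1 in both. In the mutant libraries Timp3 (27.7 and 25.7) overlapped with Adam17 (26.7 and 25.7) and exceeded Adamts1 (16.7 and 15.5). Adamts5 was at 2.04 and 2.08 CPM per kb in wild type and at 1.09 and 1.05 in the mutant, and so at a level far below that of Adamts1 in every library. Among genes with an Adamtsl symbol, Adamtsl2 was the most abundant at E11.5. It had 5.12 and 4.90 CPM per kb in wild type and 10.2 and 10.02 in the mutant. The 4 inhibitors ranked Timp3, Timp2 (9.05 and 9.18), Timp1 (3.54 and 4.27) and Timp4 (0.0936 and 0.0748) in wild type, with no overlap between neighbours.

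**Figure D3:**
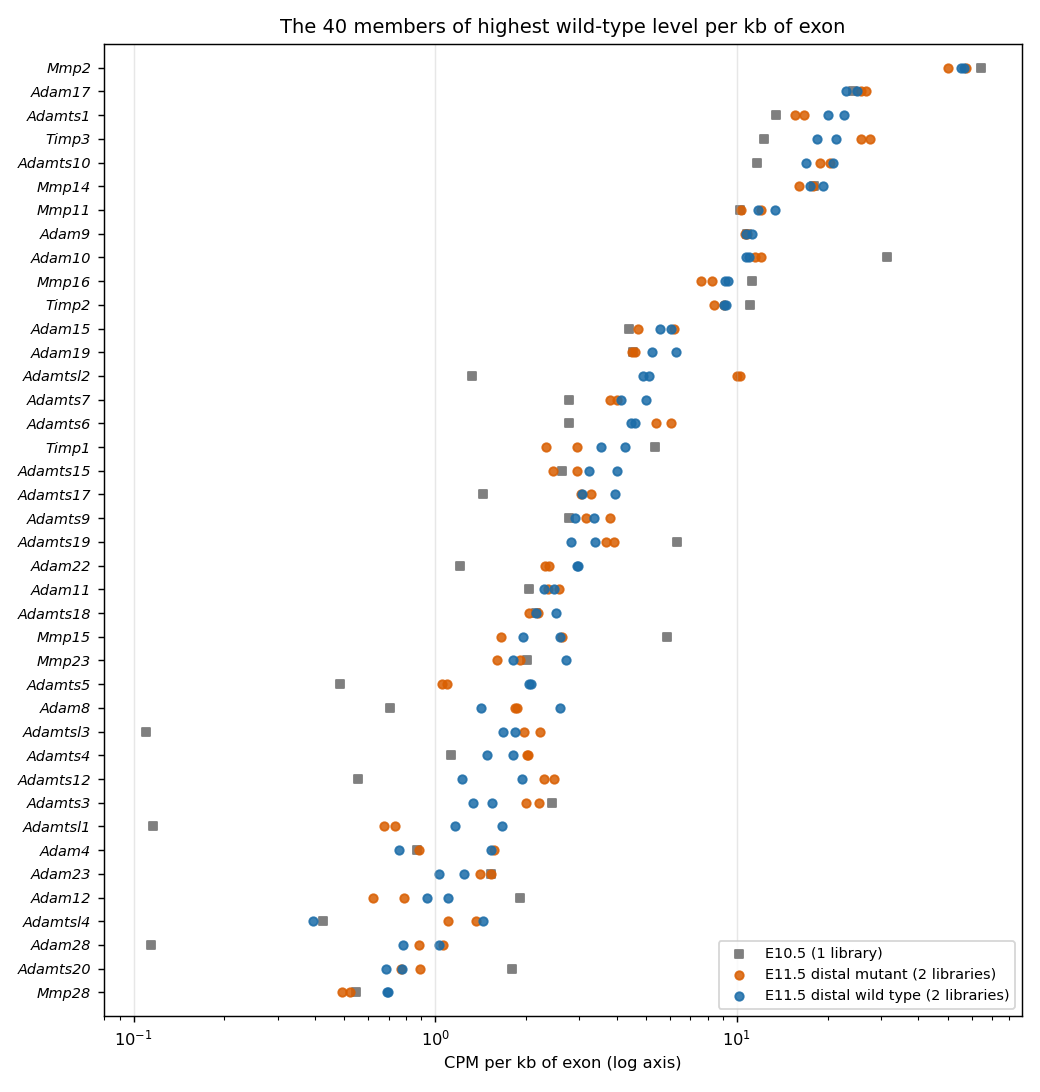
CPM per kb of exon (x axis, log scale) of the 40 genes of highest wild-type level, 1 row a gene, with squares for the E10.5 library and circles for the mutant (orange) and wild-type (blue) E11.5 libraries. Mmp2 leads in all 5 libraries, and the largest gaps between E10.5 and E11.5 are those of Adamtsl3, Adamtsl1 and Adam28.

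Between E10.5 forelimb bud and wild-type E11.5 distal forelimb, 5 of the 56 genes were higher and 13 lower at E10.5. The 13 include Timp4, which met the count rule through wild type alone. The call required a 2-fold difference in the same direction from each wild-type library, on log2 CPM with a prior count of 2, and with 1 library at E10.5 it has no replicate check and no p-value. Among 16323 genes that met the same count minimum, 3.85% were higher and 12.4% lower at E10.5. The median log2 difference was -0.43 over the 56 genes and 0.01 over all genes. With scaling to total counts in place of TMM the median over all genes shifted to -0.24, and the differences given here are relative to the TMM scale. The E10.5 and mutant comparisons share the wild-type libraries, so their values are set side by side without a test.

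The median difference of E10.5 from wild type was lower in the ADAMTS-like family (-1.92) than in the other 4 families (-0.50 to -0.20). Adamtsl3 was at 0.797 CPM at E10.5 and at 12.2 and 13.4 in wild type, differences of -3.88 and -4.01. Adamtsl1 (-3.80 and -3.28) and Adamtsl2 (-1.95 and -1.88) were lower at E10.5 too, so 3 of 5 genes of this family were called lower. The summed CPM of these 5 Adamtsl genes was 8.53 at E10.5, 50.7 and 42.4 in wild type and 61.9 and 63.7 in the mutant. Thsd4, which encodes an ADAMTS-like protein under another name, is not in this sum. It was at 25.2 CPM at E10.5, 103 and 85.6 in wild type and 35.8 and 41.6 in the mutant. Of the proteases that cut versican, Adamts5 was lower at E10.5 (-2.08 and -2.11) and Adamts20 higher (1.22 and 1.38, with 15.3 CPM against 6.56 and 5.84). Adamts12 (-1.14 and -1.81) and Adamts17 (-1.46 and -1.08) were also lower.

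The gene with the largest excess at E10.5 was Adamts16, a protease known for effects on blood pressure and fertility in rodents, at 6.28 CPM against 0.488 and 0.441 in wild type and 0.289 and 0.435 in the mutant. Its differences of 3.59 and 3.73 correspond to a 12.7-fold higher level on that scale. Adam10 was at 145 CPM at E10.5 and between 49.1 and 55.2 in all 4 E11.5 libraries (1.52 and 1.56). Mmp15, a membrane-bound MMP, was at 30.2 CPM against 13.3 and 9.996 in wild type (1.18 and 1.59). Adam7, known from the epididymis, had 71 counts at E10.5 and 8 in each wild-type library. Adam10 and Mmp15 were thus the more abundant of the 5 genes higher at E10.5, along with Adamts20.

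The remaining genes lower at E10.5 were mostly rare. Adam28, a protease first described in lymphocytes, had 37 counts at E10.5 and 216 and 198 in wild type (-3.09 and -2.70), and Adam22 was at 13.03 CPM against 31.9 and 31.8 (-1.29 and -1.28). Mmp21 (-1.81 and -1.73) and Mmp25, a membrane-bound MMP of leukocytes (-2.21 and -1.12), had 11 and 14 counts at E10.5. For genes with 1 to 3 counts at E10.5, the ratio of wild type to E10.5 was 35.7 for Timp4 (exact 95% interval 6.13 to 1439), 9.11 for Adam33 (2.90 to 46.1) and 5.84 for Mmp24 (1.78 to 30.2). These intervals cover counting error only. Timp4 met the count rule through wild type alone, and Adam33 and Mmp24 met it through mutant and wild type. None of them met it through the E10.5 library, so these ratios are given as a description. Macrophage markers were lower at E10.5 as well, as given above, and their part in the levels of Mmp25, Adam28 and Adam8 (2.20 CPM at E10.5, 8.07 and 4.43 in wild type) was not tested. Mmp2, Mmp14, Mmp16, Timp2, Adam9 and Adam17 differed by less than 0.3 on the log2 scale from each wild-type library.

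**Figure D4:**
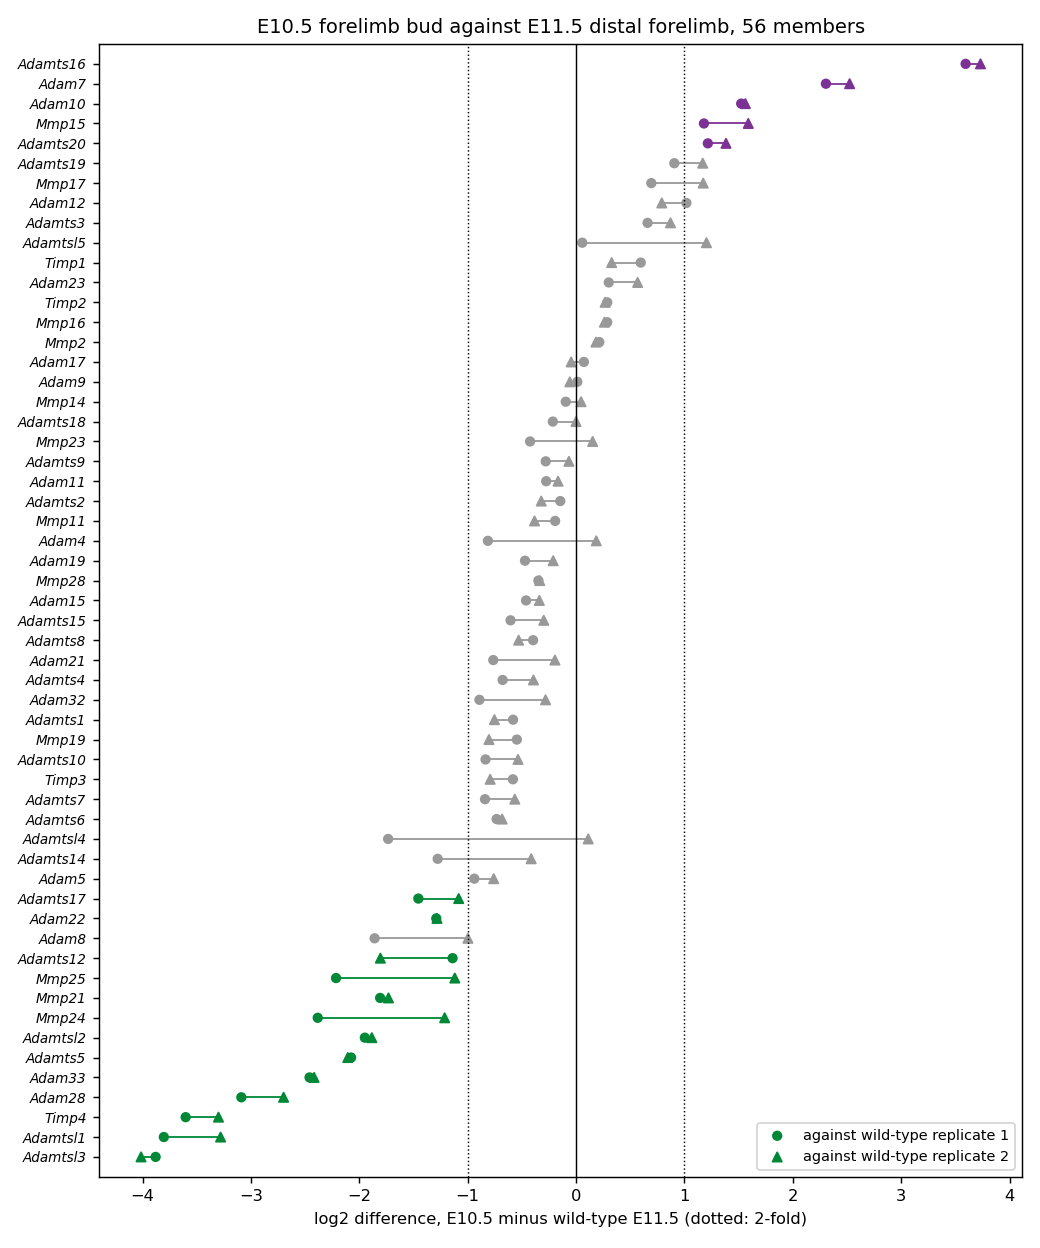
Log2 difference of the E10.5 library from wild-type replicate 1 (circles) and wild-type replicate 2 (triangles) for all 56 genes (x axis, log2 CPM with a prior count of 2), with dotted lines at 2-fold. The 5 genes called higher at E10.5 are purple, the 13 called lower are green, and Adamts16 and Adamtsl3 are at the ends.

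Genes that work with these proteases were examined in 5 lists, chosen with earlier results of these data known. In the order below, 21.1%, 31.2%, 13.3%, 9.52% and 5.88% of their tested genes were called between genotypes. Of all genes tested, 7.16% were called, 3.82% risen and 3.34% fallen. In the list of protease activation and cell-surface control 2 of 19 tested genes rose and 2 fell. Pcsk6, a proprotein convertase, fell to 21.7 ± 2.54 CPM (SD, n = 2) from 40.3 ± 0.920 (log2 fold change -0.88, adjusted p = 0.000366), and Plat, the tissue plasminogen activator, fell (-0.84, 0.0106). Among the risen genes was the serine protease gene Htra1 (0.52, 0.0497). The median of this list was 0.08.

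Among hyalectans and other ADAMTS substrates 4 of 16 rose and 1 fell, with a median of 0.33. Has2, the synthase of the hyaluronan to which versican and aggrecan bind, fell from 108 ± 2.72 to 51.5 ± 1.21 CPM (log2 fold change -1.07, adjusted p = 1.71e-05). The collagen I genes Col1a1 (1.02) and Col1a2 (0.48), the matrix gene Fbln2 (0.57) and Vwf, the clotting factor of endothelium (1.32), rose. Vcan, which encodes versican, had 1005 and 1051 CPM in the mutant against 814 and 857, a log2 fold change of 0.31 that did not pass the test (adjusted p = 0.0611).

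Of 15 microfibril genes 2 fell and 0 rose, with a median of 0.06. Ltbp1, which stores TGF-beta in microfibrils, fell from 161 ± 14.3 to 73.1 ± 2.30 CPM (log2 fold change -1.13, adjusted p = 1.57e-05). Thsd4, which encodes an ADAMTS-like protein outside the naming rule used here, fell from 94.5 ± 12.6 to 38.7 ± 4.11 CPM (-1.28, 3.58e-05). Both were also lower at E10.5 than in wild type (-2.10 and -1.90). Among substrates and partners of ADAM sheddases, the Notch ligand Jag1 fell (-1.93) and the ephrin receptor Epha3 rose (0.61), 1 each of 21 tested, with a median of -0.05. Of 17 other secreted matrix proteases and their helpers 0 rose and 1 fell, 9930013L23Rik (-1.42, adjusted p = 0.0446, at 0.388 ± 0.0941 CPM in the mutant against 1.03 ± 0.0673), an older symbol of the hyaluronan-degrading gene Cemip. No gene of this list fell under 5 of the 10 alternatives, namely the DESeq2 test, the replicate block and the omission of mutant replicate 1, mutant replicate 2 or wild-type replicate 2.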

How the data were processed

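Total RNA was depleted of ribosomal RNA and made into stranded libraries, per the labels' protocols. The authors deposited read counts for each gene symbol as whole numbers. The submitters' processing notes name HTSeq, TopHat2 2.0.13, Cufflinks 2.1.1, SAMtools and the mm9 genome. The strand setting, annotation and filters of the counting are not given in the sources used here. The summary lines of HTSeq, 24.3% to 39.6% no-feature reads among them, entered neither the library sizes nor the tests.

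Mutant and wild-type E11.5 libraries were compared with edgeR 4.0.16 in R 4.3.3 (filterByExpr with a minimum count of 10 and total of 15, TMM, quasi-likelihood F test, genotype as the only term). P-values were adjusted by the Benjamini-Hochberg method across every gene in the fit. The SE of a log2 fold change is its size divided by the square root of F. Printed CPM use TMM factors over all 5 libraries. DESeq2 1.42.0, other scalings, filters and omissions of libraries were alternatives, and the fit was tested on simulated data.

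The genes described, the gene lists and the words searched in promoters were chosen with earlier results of these data known. Full values were given for genes called between genotypes, for Adamtsl2, Mmp2, all Timp genes and the gene of highest mean CPM in each family. Of the lists, genes called between genotypes were named, except that 1 is not reported here. Exon overlaps and gene order came from GENCODE vM21 and RefSeq (GRCm38), not mm9. A blastn 2.17.0 search at 95% identity over 200 bases found another transcribed locus only for Adam12. Overlapping exons on the opposite strand made Adam17, Adamts7, Mmp19, Mmp24, Mmp28 and Timp4 uncertain. The 2 libraries of each genotype differed beyond counting noise in 42.9% (mutant) and 50.0% (wild type) of genes and were counted as separate samples; p-values measure only the spread between such pools.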

Additional observations from a re-analysis of the deposited data

How the results depend on the processing

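Of the 7 calls between genotypes, those of Adamts5, Adamtsl1, Adamtsl2 and Timp4 held under all 10 alternatives, with log2 fold changes of -0.96 to -0.91, -1.22 to -0.72, 0.997 to 1.04 and -3.86 to -3.56. Timp4 met the count rule through wild type alone. The alternatives reuse the same counts and cannot undo that choice, so its range is given as a description. Adamts1 held under 8, Adamts3 under 7 and Timp3 under 9, and the exceptions all left out 1 library. Without the low-count filter 5 of these genes rose and 7 fell, and over all genes 959 rose in place of 617; there the list of protease activation had 4 risen, ADAMTS substrates 7 risen, microfibril partners 1 risen and 4 fallen, and ADAM substrates 2 risen. With DESeq2 size factors 1 gene of protease activation rose, and with the DESeq2 test 0 of the other matrix proteases fell.

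Leaving out 1 library moved the number of risen genes described here between 2 and 7 and of fallen ones between 3 and 6, and over all genes between 410 and 1113 (risen) and 373 and 905 (fallen). The highest numbers but that of the fallen genes described here, which came without wild-type replicate 2, came without wild-type replicate 1. Over the same omissions the risen genes ranged from 1 to 2 for protease activation, 2 to 8 for ADAMTS substrates, 0 to 3 for microfibril partners, 1 to 3 for ADAM substrates and 0 to 1 for other matrix proteases, and the fallen ones from 1 to 2 for ADAM substrates and 0 to 2 for other matrix proteases. Over these omissions the uncalled log2 fold change of Mmp2 ranged from -0.151 to 0.0428 (above 0 without mutant replicate 2) and that of Adamts10 from -0.0704 to 0.212 (below 0 without wild-type replicate 2). The cause of these shifts was not tested.

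The replicate numbers of mutant and wild type mark no shared litter or batch in the labels. Deviations of same-numbered libraries had a correlation of -0.08 across 16166 genes, which cannot exclude a shared litter or batch. With the replicate block 1252 genes were called in place of 1157, Adamts12 was called in addition to the 7, and 7 ADAMTS substrates rose, 2 ADAM substrates rose and 0 other matrix proteases fell. At E10.5 a 1.5-fold threshold gave 9 of the genes described here higher and 16 lower, and over all genes 1665 higher and 3038 lower. Leaving out a wild-type library gave 6 to 8 of the genes described here higher and 13 to 16 lower, and over all genes 842 to 955 higher and 2275 to 2626 lower. Depth limits what can be said of genes with fewer than about 50 counts per library, such as Timp4, Adam7 and Mmp24.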

Other observations

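Adamtsl4 had 273 counts in wild-type replicate 1 and 90 in replicate 2, and Adam8 had 380 and 251. Reads assigned to no gene made up 39.2% of the total in wild-type replicate 1 and 30.3% in replicate 2.

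Besides Adamts1 and Adamts5, neighbouring protein-coding genes among the 56 were Adamts15 and Adamts8, with log2 fold changes of -0.41 and 0.40, and the run of Adam5, Adam32 and Adam9, where the tested Adam5 and Adam9 had 0.15 and -0.03. None of these passed the edgeR test.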
